A study of Mus musculus with 9 samples.

Results

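Dominant Sleeping Beauty (SB) sites were the positions at which an SB end was read in at least 5% of all IR counts of a tumour, IR being the library amplified from the SB part of the transposon. Of 1303614 IR sites in 119 mouse medulloblastomas, 499 were dominant (0.0383%), and they held 62.9% of the IR counts. The tumours carried Lazy Piggy, a transposon with SB ends and piggyBac (PB) ends, and each was sequenced in IR libraries, in PB libraries and in JX libraries from the boundary between both parts. The compared animals were 72 listed as TAM+ (tamoxifen, here T1 to T72) and 47 listed as TAM- (untreated, U1 to U47). All were Lazy Piggy animals with an SHH (Sonic hedgehog) medulloblastoma, and the labels give no other allele, no age and no tamoxifen dose. The sheet lists 4 to 249 tamoxifen days for the treated animals, which form 1 arm here, and 0 for the untreated. The sheet lists chromosome 10 as the donor chromosome of 90 animals and chromosome 7 as that of 29.

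A cut-and-paste transposon leaves its donor site and integrates elsewhere, and SB integrates at a TA dinucleotide, often on the chromosome from which it left. A cell whose insertions favour growth can expand, so an insertion shared by many cells of a tumour gives many reads. In Lazy Piggy the SB transposase acts while the tumour forms, and tamoxifen switches on a PB transposase that can move the element again. IR reads therefore mark SB ends in the genome, PB reads mark PB ends, and JX reads mark an element in which both parts are still joined. SHH medulloblastoma arises from granule neuron precursors of the cerebellum, in which the receptor Ptch1 normally restrains Smo and the GLI transcription factors.

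The gene hit in the most animals was Ppp1r12a, which encodes the targeting subunit of myosin phosphatase, and 6 of its 11 sites lay upstream of it or in intron 1. Sequence just before its start is shown beside that of Pard3b, a cell polarity gene away from both donor chromosomes, only as an example of how TA dinucleotides are spread. The 250 bases before each start are from RefSeq (GRCm38.p6, plus strand, chr10:108161848-108162097 and chr1:61638574-61638823), with each TA in capitals.
Ppp1r12a: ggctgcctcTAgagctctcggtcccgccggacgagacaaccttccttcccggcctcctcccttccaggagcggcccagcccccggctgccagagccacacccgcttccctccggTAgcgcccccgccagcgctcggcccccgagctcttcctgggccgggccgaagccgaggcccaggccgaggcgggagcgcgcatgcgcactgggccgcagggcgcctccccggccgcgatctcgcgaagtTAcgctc
Pard3b: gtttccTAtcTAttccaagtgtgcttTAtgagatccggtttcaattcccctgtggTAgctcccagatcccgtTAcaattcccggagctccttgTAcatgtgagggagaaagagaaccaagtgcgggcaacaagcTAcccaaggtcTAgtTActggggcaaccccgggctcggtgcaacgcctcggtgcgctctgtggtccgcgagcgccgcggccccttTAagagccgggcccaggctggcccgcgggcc
The Ppp1r12a stretch held 3 TA dinucleotides and the Pard3b stretch 10, against a median of 9 over 32851 promoters of this length, of which 98.7% held at least 1. Of the 5 genes hit in at least 3 animals, 3 had an entry. Site positions below are in mm9 and were not set against these coordinates.

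The dominant sites were spread over nearly all tumours. In the tamoxifen arm 294 sites lay in 71 of 72 animals, and in the untreated arm 205 lay in 46 of 47. An animal had 0 to 8 of them in either arm, with a median of 4 in both. The members were chosen by their IR share, which is therefore a description only. Its median was 10.9%, 274 sites held 10% or more, 97 held over 20% and 9 held over 50%. Counting error was small, with a widest Wilson half-width of 0.0946 percentage points (95%), but PCR reads are not independent molecules and the intervals cover counting error only. Just inside the threshold were sites listed to Syt1 in U42 (5.0%), Prcp in U24 (5.02%) and Vkorc1l1 in U41 (5.02%). Just outside were sites listed to Gpr33 in U31 (4.97%), Mospd4 in T48 (4.97%) and Vmn2r61 in T26 (4.96%).

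**Figure D1:**
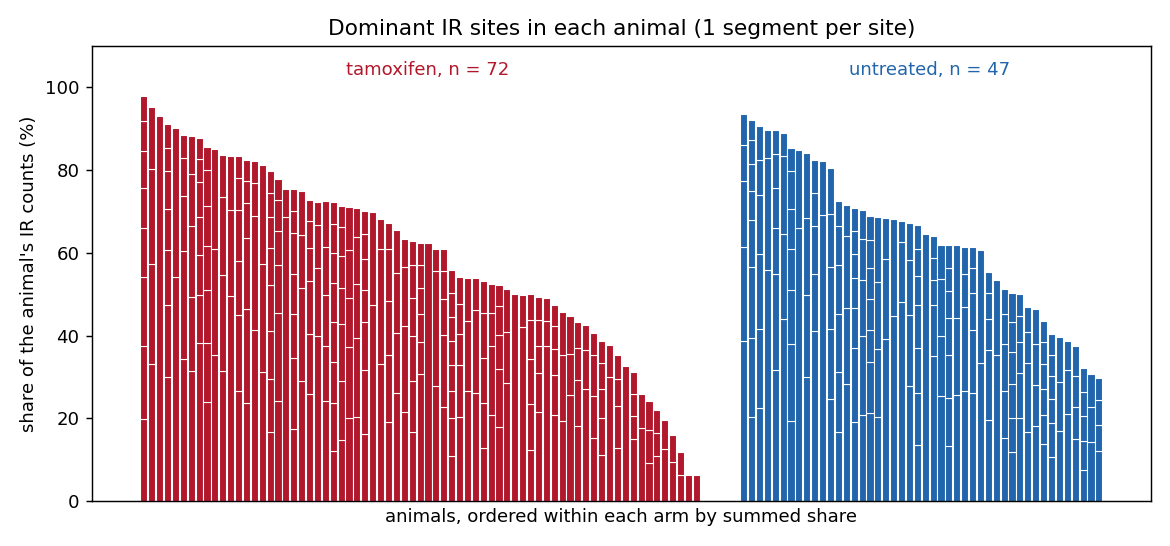
Share of the IR counts of each animal (percent) held by its dominant sites, 1 bar per animal and 1 segment per site, for 72 tamoxifen-treated and 47 untreated animals ordered by summed share. Summed shares reach 98.0% with tamoxifen and 93.6% without, and 1 animal of each arm has no dominant site and so no bar.

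Each dominant site belonged to 1 animal. No position was dominant in more than 1 animal, and a median of 99.3% of the IR counts at a site (lowest 93.0%) came from its own animal. The position was still listed in a median of 13 other animals, and in up to 44. Choosing sites by IR share itself raises the percentage from the own animal, which is therefore a description only. The animals without a dominant site were T3, which had 1640 lower sites and, En2, Foxf2 and Sfi1 apart, no site above 0.871%, and U44, whose highest site held 4.65%. Lower sites here are those under 5% that had 10 counts or more and no less than 1% of what the top site of that animal had, 3402 in all.

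The largest site was in intron 10 of Lrp1, an endocytic receptor of the LDL receptor family, in T19 (chr10, position 127030270). It held 93.0% of IR counts, 5.11% of JX counts and 54.0% of PB counts, and was read almost equally from the left and right SB ends (49.3% left). In the untreated arm the highest were intron 14 of Ano1 (a calcium-activated chloride channel, U15, 69.2%), intron 17 of Utp6 (a ribosome biogenesis gene, U34, 66.1%) and intron 13 of Ipo11 (a nuclear import receptor, U23, 64.6%). The other sites above 50% were intron 3 of Hyal5 (a hyaluronidase, T57, 68.6%), intron 7 of Plcg2 (a phospholipase C, T65, 62.3%), exon 8 of Prickle2 (a planar polarity gene, U11, 55.8%) and intron 1 of Ppp1r12a in T66 (54.2%) and T59 (50.1%). None of these genes was in a list of SHH pathway or medulloblastoma genes. The next tamoxifen sites were upstream of Zfp930 (T67, 49.6%), on the X chromosome with no gene (T44, 47.4%), downstream of Npas3 (T33, 42.1%), in 2210408I21Rik (T29, 41.3%) and on chromosome 3 with no gene (T34, 39.9%). The next untreated sites were in Alx4 (U33, 48.2%), downstream of Akr1c6 (U37, 44.8%), in Gli3 (U8, 43.9%), upstream of Ppp1r12a (U19, 41.0%), in Otogl (U6, 39.1%) and in exon 11 of Map3k1 (U13, 38.7%).

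A large IR share did not come with a fixed PB or JX share. Hyal5 in T57, Plcg2 in T65, Zfp930 in T67 and the X-linked site in T44 had no PB count, while Npas3 in T33 held 69.2% of PB counts and 62.0% of JX counts. A PB count of 0 allowed up to 0.153% in T57, 0.0330% in T65, 0.0337% in T67 and 0.175% in T44 (3 counts of the library), and those animals had only 1714 to 9081 PB counts. Exonic Tmem170b in T43 also had no PB count, in a library where 0 counts allowed up to 9.14e-04%.

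By the table's annotation, 225 dominant sites were intronic (45.1%), 11 exonic (2.20%), 75 upstream (15.0%), 78 downstream (15.6%) and 110 without a gene (22.0%). Gene bodies held 47.3% of dominant and 48.8% of lower sites. Per animal this was 49.2% ± 26.4 of dominant against 47.7% ± 25.1 of lower sites (SD, n = 113, adjusted p = 0.682, two-sided paired permutation test over 3 comparisons). Intron 1 held 52 of the 225 intronic sites (23.1%). In-gene sites lay in the orientation of the gene in 128 of 236 (54.2%), and per animal in 55.0% ± 38.2 of dominant against 49.5% ± 32.6 of lower sites (n = 95, adjusted p = 0.682, same test). The 344 listed genes included 323 that were hit in 1 animal only.

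For the 153 sites outside a gene, the assigned gene and its distance need care. In 95.2% of 7294 genes with listed positions on both sides, the table's distances on both sides ran to the same point within 2 bp, and for 95.9% of positions below a gene the distance reached past its highest in-gene position. The listed distance thus ran to the gene's higher coordinate, whatever the strand, so a gene above a site was set at a distance that included its own length. Of the dominant outside sites, 98 lay above their gene, 43 below it and 12 had no side. Measured to the nearest in-gene position that the table lists, the median distance was 24.5 kb (141 sites), and 42 sites were within 10 kb.

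The table lists 192 of the 236 in-gene sites as disrupting the coding sequence (CDS), 81.4%, against 81.7% of the lower in-gene sites. The lower share is pooled over animals, and T3 alone gave 1640 of all 3402 lower sites. The term CDS-disrupting covers introns between coding exons: 186 of the 192 were intronic. Such a site was present in 60 of 72 tamoxifen-treated animals (83.3%) and 41 of 47 untreated animals (87.2%; Fisher's exact test, two-sided, adjusted p = 0.816 over 8 arm comparisons).

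Of the 11 exonic sites, 4 were in the tamoxifen arm and none of these was listed as CDS-disrupting, while 6 of the 7 in the untreated arm were. This split was seen in the data and was not tested. The CDS-disrupting share of lower exonic sites was not computed, so neither count has a reference. Over all in-gene dominant sites the arms were alike, with 81.5% listed as CDS-disrupting with tamoxifen and 81.2% without. The untreated CDS-disrupting exons were exon 11 of Map3k1 (a MAP kinase kinase kinase, U13, 38.7%), exon 1 of the odorant receptors Olfr791 (U45, 14.2%) and Olfr804 (U12, 5.22%), exon 3 of Fuca1 (a lysosomal fucosidase, U12, 12.4%), exon 47 of Utrn (utrophin, U10, 7.34%) and exon 6 of 0610007P08Rik (U14, 6.23%). The exons listed as not disrupting the CDS were those of Prickle2 (U11), Tmem170b (T43, 22.3%), Pard3b (T34, 16.5%), Chrdl2 (a chordin-like gene, T22, 9.76%) and Ccr9 (a chemokine receptor, T50, 7.18%). The Map3k1 site was read from both SB ends (69.4% left) and held 6.79% of JX and 43.2% of PB counts.

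Only 5 genes had a dominant site in at least 3 animals, and none passed the test between arms (0% called, 0 at an unadjusted p under 0.05). The lowest p that a gene hit in 3 animals could reach is 0.0592. Ppp1r12a was hit in 8 tamoxifen-treated and 3 untreated animals (11.1% and 6.38%, Fisher's exact test, two-sided, p = 0.523, adjusted p = 0.935). Otogl, an otogelin-like gene of the inner ear, was hit in 4 and 5 animals (5.56% and 10.6%, p = 0.315, adjusted p = 0.935, same exact test). Nav3 (a neuron navigator) and Pard3b were each hit in 2 tamoxifen-treated and 1 untreated animal, and Syt1 (the calcium sensor of synaptic vesicles) in 1 and 2. Of these 5, only Pard3b lies off chromosomes 7 and 10.

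The 11 Ppp1r12a sites lay between positions 107527686 and 107737999 of chromosome 10, all in animals with donor chromosome 10. Upstream were T24 (11.6%), U19 (41.0%) and T35 (24.2%), at 72.4, 25.2 and 7.35 kb from the lowest in-gene position listed. In intron 1 were T2 (5.45%), T59 (50.1%) and T66 (54.2%), in intron 3 U20 (11.0%), in intron 5 U36 (33.4%) and in intron 14 T70 (26.7%). Downstream were T18 (8.84%) and T37 (26.0%). Both arms were thus found upstream and inside the gene, and 6 of the 11 sites lay in its orientation. JX shares at these sites ran from 0.226% (T24) to 14% (U20), and PB shares from 0.00834% (T18) to 60.2% (T37).

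Otogl held 10 sites between positions 107233861 and 107445470, with 7 in introns 6 to 36 and 3 upstream. The highest were intron 8 in U6 (39.1%) and intron 17 in T28 (31.1%), the only Otogl animal with donor chromosome 7. The other 8 held 5.35% to 9.67%, so most Otogl sites were near the threshold. U17 carried 2 of them, in intron 21 (7.75%) and upstream (6.88%). The Nav3 sites held 26.5% (intron 33, T23), 5.63% (intron 1, T55) and 5.73% (downstream, U24), and the Syt1 sites 9.19% (T27), 8.21% (U21) and 5.0% (U42).

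Pard3b held a dominant site in T62 (37.5%) and U5 (18.5%), both in intron 18, and in exon 23 in T34 (16.5%). All 3 lay in the orientation of the gene, with donor chromosomes 10, 10 and 7. They held 10%, 2.26% and 30.3% of JX counts and 38.6%, 5.43% and 49.5% of PB counts. A further 16 genes were hit in 2 animals. Alx4 (a homeobox gene), Bai3 and Prickle2 were hit in untreated animals only, and Efcab6, Fam168a, Gm8633, Myo10, Plekhb1, Vcan and Vstm2a in tamoxifen-treated animals only, which was not tested further. With these arm sizes, 2 hits in 1 arm give a two-sided Fisher's exact p of 0.154 (untreated) or 0.518 (tamoxifen). Such a gene could thus not be called.

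Gene lists by pathway, tumour type or function come first, and these held 0 to 2 dominant sites each. The lists were chosen with earlier results of these data known. Beside each, the pooled share of lower sites is given. T3 alone gave 1640 of the 3402 lower sites, so these shares weigh that animal heavily. The list of 22 SHH pathway genes held 1 site, in Gli3 (the GLI factor that mostly represses targets, intron 3, U8, 43.9%), or 0.200% of dominant against 0.235% of lower sites. The SHH medulloblastoma gene list held 1 (Zbtb20, T25, 11.8%), 0.200% against 0.617%. The chromatin regulator list held 2, in Eed (a core Polycomb subunit, intron 1, T13, 24.3%) and upstream of Tet2 (a methylcytosine dioxygenase, T36, 7.39%), 0.401% against 0.412%. The list of PI3K, RAS and growth signalling held 1, in the growth factor receptor gene Igf1r (U27, 15.0%), 0.200% against 0.588%. The granule neuron lineage list held none, against 0.265% of lower sites, and the cell cycle and DNA damage list held none of either. Voltage-gated potassium channels held 1 of 28 genes, Kcnc2 (a Kv3 channel, intron 2, U2, 17.5%), which lies on chromosome 10, the donor chromosome of U2, or 0.200% against 0.118%.

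Synaptic adhesion and very long genes held 4 sites (0.802% against 1.82% of lower sites): Prkg1 (a cGMP-dependent kinase, T53, 20.8%), Rbfox1 (a splicing regulator, U39, 11.0%), Ctnna3 (an alpha catenin, T36, 6.97%) and Cntnap5b (T60, 6.49%). The list of genes near the chromosome 10 donor held 34 sites in 16 tamoxifen-treated and 13 untreated animals, 6.81% of dominant against 10.1% of lower sites. The list near the chromosome 7 donor held 9 sites in 6 animals, all with tamoxifen, 1.80% against 0.705%. Its members included Plekhb1 in T22 (17.3%) and T51 (17.0%) and Fam168a in T36 (9.48%) and T64 (5.66%), and T36 has donor chromosome 10. Untreated U28, with donor chromosome 7, had a dominant site at position 108452013 of chromosome 7, listed to Atg16l2, outside the list. Over all of chromosome 7, donor 7 animals had on average 23.5% of their dominant sites there with tamoxifen (n = 19) and 22.2% without (n = 9). The list shares are descriptions without a test, and T3, with donor chromosome 10, gave 1640 of the 3402 lower sites.

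Chromosome 10 held 110 dominant sites (22.0%), chromosome 13 held 68 (13.6%) and chromosome 7 held 50. Of the sites in animals with donor chromosome 10, 105 of 369 (28.5%) lay on it, and of those with donor chromosome 7, 32 of 130 (24.6%). Per animal the donor chromosome held 27.9% ± 25.8 of dominant and 26.7% ± 21.2 of lower sites (SD, n = 113, adjusted p = 0.682, two-sided paired permutation test). It held 30.0% ± 28.9 of dominant sites with tamoxifen (n = 71) and 25.9% ± 22.1 without (n = 46, adjusted p = 0.732, two-sided permutation test).

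Chromosome 13, which carries Ptch1, was no animal's donor chromosome. It held 13.6% of dominant sites in the tamoxifen arm and 13.7% in the untreated arm, against 6.58% of lower sites and 4.56% of the covered length. Averaged per animal the shares were 15.4% of dominant and 12.9% of lower sites (n = 113, not tested), and T3 alone gave 1640 of the 3402 lower sites. Of the 68 dominant sites on chromosome 13, 58 lay in animals with donor chromosome 10, which had 369 dominant sites in all. The other 10 lay in animals with donor chromosome 7, which had 130. This split by donor was not tested. No dominant site was listed to Ptch1. The highest were Ipo11 (U23, 64.6%), Akr1c6 (U37, 44.8%), Gli3 (U8, 43.9%), 2210408I21Rik (T29, 41.3%) and Map3k1 (U13, 38.7%). Outside the donor chromosome, 7 windows of 1 Mb held sites of 3 animals, and 5 of them were on chromosome 13, with genes such as Cts7, Vcan and Edil3. No expected number of such windows was computed, so the count has no reference and was not tested.

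**Figure D2:**
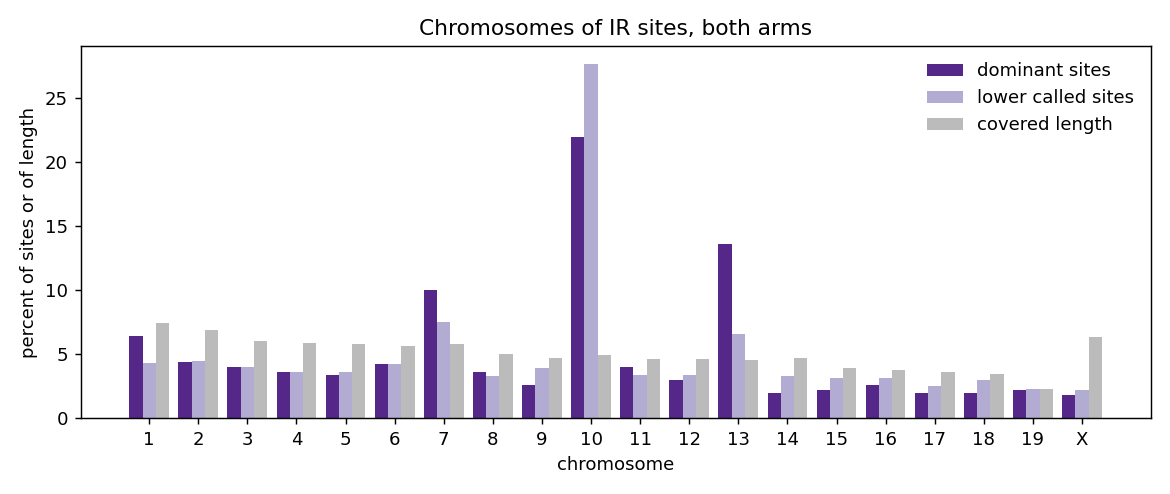
Percent of dominant sites, of lower sites and of covered length (bars, y axis from 0) on each chromosome (x axis), both arms together. Chromosome 10 holds 22.0% of dominant and 27.7% of lower sites, and chromosome 13 holds 13.6% and 6.58%. The bars pool all animals, and T3 alone gives 1640 of the 3402 lower sites. Averaged per animal (n = 113), chromosome 10 holds 23.2% of dominant and 22.8% of lower sites, and chromosome 13 holds 15.4% and 12.9%.

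Most dominant sites were read from 1 SB end. At least 99% of the IR counts came from the left end at 189 sites and from the right end at 181, together 370 of 499 (74.1%), against 76.3% of lower sites. That share of lower sites is pooled, and T3 alone gave 1640 of the 3402. Only 72 sites held at least 5% of the counts of each end. The PB libraries gave the same side: of left-end sites with a PB count, 161 of 166 had the higher share in the left PB library, and of right-end sites 148 of 159 in the right. In JX this was so for 158 of 189 and 167 of 181. Applied to the left end alone, the same threshold gave 389 sites (287 shared with the 499), and to the right end alone 394 (284 shared). An IR share is therefore a share of reads and not a fraction of cells, and what sets the side was not tested.

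**Figure D3:**
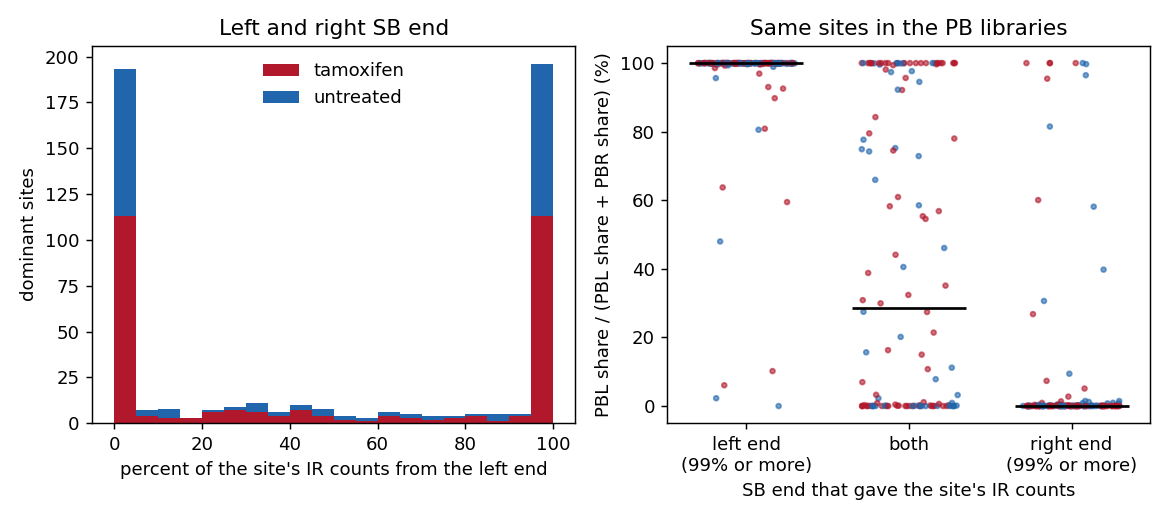
Left, histogram of the percent of IR counts of each dominant site that came from the left SB end, stacked by arm. Right, the left share among PB counts (percent, each end scaled by its own library total) for sites read at the left end, at both ends or at the right end, 1 point per site with a PB count and a line at the median, with points near 100% for left-end sites and near 0% for right-end sites.

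Every dominant site had JX counts in its own animal within 100 bp, in both arms. The lowest JX count was 107 and the median 6896. Presence alone separates little, since another animal of the same lane had a JX count there in 62.7% of cases (mean over sites), and at least 10 counts in 17.9%. In other lanes these shares were 1.57% and 0.942%. A PB count was found at 260 of 294 sites with tamoxifen (88.4%) and at 193 of 205 without (94.1%).

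Over the animals with a dominant site, lanes pooled, the share of JX counts at the sites was higher with tamoxifen. Per site the median was 3.40% with tamoxifen and 1.25% without, and at least 5% of JX counts fell on 111 of 294 (37.8%) and 28 of 205 sites (13.7%). Summed per animal, JX shares ran from 0.452% over a median of 22.8% to 90.1% with tamoxifen, and from 0.347% over 10.2% to 65.5% without, so the arms overlapped widely. The means were 31.7% ± 27.7 (n = 71) and 16.3% ± 18.9 (n = 46), a difference of 15.4 percentage points (95% interval 6.94 to 23.8, two-sided permutation test, p = 0.00110, adjusted p = 0.00880 over 8 arm comparisons). The call was lost when arms were permuted within lanes (p = 0.0305, adjusted p = 0.244) and in animals with donor chromosome 10 alone (12.9 points, p = 0.0197, adjusted p = 0.157, same permutation test).

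JX shares also varied by lane. Means with and without tamoxifen were 25.6% and 25.1% in lane 1, 47.3% and 39.9% in lane 2, and 47.3% and 34.9% in lane 3. They were 13.2% and 2.76% in lane 4, 56.3% and 41.9% in lane 5, and 6.15% and 14.1% in lane 6. In lanes 7, 8 and 9 they were 25.1% and 10.7%, 7.29% and 8.45%, and 25% and 7.65%. The tamoxifen mean was thus higher in 7 of 9 lanes, with nearly equal means in lane 1. Lanes 3 and 8 held only 2 untreated animals each, and lane 9 only 2 tamoxifen-treated animals. Only animals sequenced in 1 lane enter these means. Lane 5, with the highest means, held 12 tamoxifen-treated and 4 untreated animals, and lane 4 held 5 and 11.

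JX counts also fell on positions shared among animals. Positions listed in at least 20 animals held 46.4% ± 28.3 of JX counts with tamoxifen (n = 72) and 55.9% ± 25.5 without (n = 47), from 30.2% in lane 3 to 79.9% in lane 6. With these positions left out of the total, the difference was 13.0 points (p = 0.0193, adjusted p = 0.154, permutation test), and within lanes the adjusted p was 0.732. Median JX depth was 441808 counts with tamoxifen and 287429 without, and the part of depth in the difference was not tested.

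**Figure D4:**
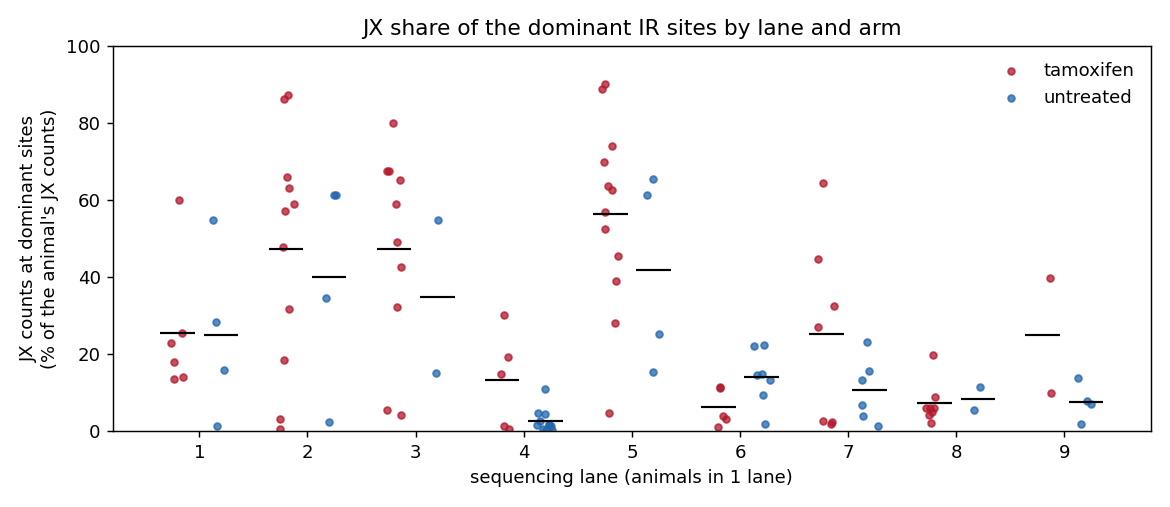
Share of the JX counts of each animal (percent, y axis) that fell on its dominant sites, by sequencing lane (x axis) and arm, 1 point per animal sequenced in 1 lane and a line at the mean. Lane 5 has the highest mean with tamoxifen (56.3%) and lane 4 the lowest without (2.76%).

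The share of PB counts at dominant sites was 47.3% ± 31.4 with tamoxifen (n = 71) and 51.4% ± 25.1 without (n = 46), a difference of -4.11 points (95% interval -14.4 to 6.17, adjusted p = 0.732, two-sided permutation test). Among animals with more than 1 dominant site, the highest site in IR was also the highest of them in JX in 62 of 110 (56.4%) and in PB in 61 of 110 (55.5%). The rate for unrelated rankings depends on the number of sites per animal and was not computed, so these rates have no reference. The JX share exceeded the IR share at 67 of 499 sites, a count that the choice of sites by IR share itself lowers.

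**Figure D5:**
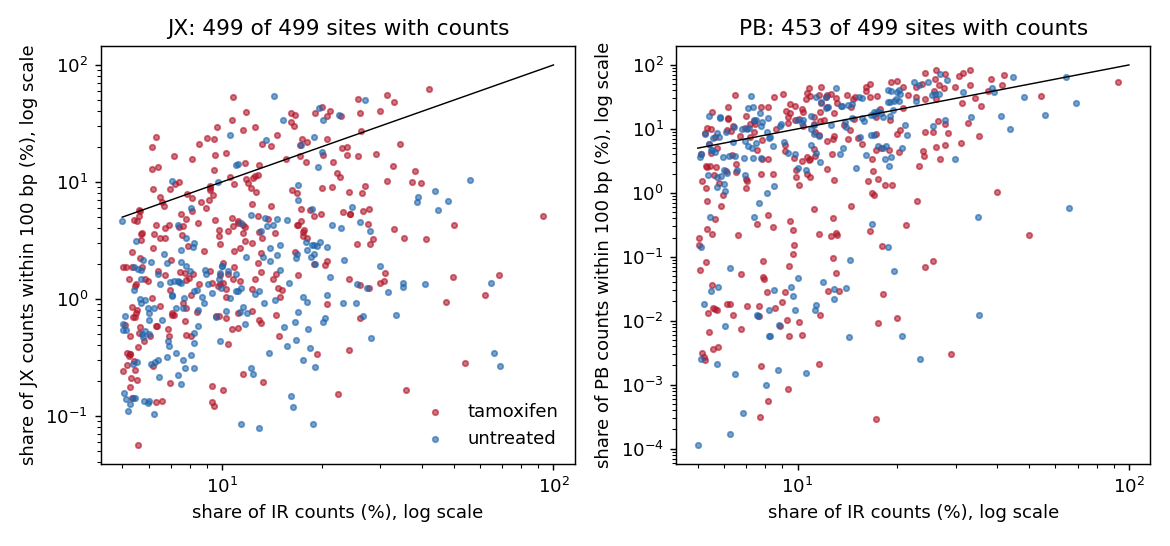
Share of JX counts (left) and of PB counts (right) within 100 bp of each dominant site against its share of IR counts, all in percent on log axes, 1 point per site with counts, coloured by arm, with the line of equal shares. Of 499 sites, 499 have JX counts and 453 PB counts, and 67 lie above the line in the JX panel.

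The number of dominant sites and their summed IR share follow from the rule that chose them and are given without a test. There were 4.08 ± 1.97 sites per animal with tamoxifen (n = 72) and 4.36 ± 1.75 without (n = 47). Their summed IR share was 59.0% ± 23.7 and 62.7% ± 20.1. Both arms ranged from animals with no such site to animals with 8. The share of dominant sites inside gene bodies was 49.5% ± 28.4 and 50.4% ± 24.9 (difference -0.878, 95% interval -10.6 to 8.88, adjusted p = 0.988, two-sided permutation test). The interval allows a difference in either direction.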

How the data were processed

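Splinkerette libraries of tumour DNA were sequenced in 9 lanes, per the labels. The values are unscaled counts of each library at each position, which the authors deposited, on mm9 per the submitters' processing notes. The sources used here name no aligner, counting rule or annotation. The lane, arm, animal and donor chromosome came from the authors' sample sheet. Animals were the replicates. Both ends and repeat lanes (7 animals) were summed, 1 ID spelled in 2 ways was joined, and 2 animals with conflicting arms were left out.

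Rows listed as En2, Foxf2 or Sfi1 (7.78% of IR counts) were left out of sites but kept in the total. Per animal these rows held from 0.0322% (T25) to 41.1% (T33) of IR counts, so an IR share is a different part of the kept counts in each animal. With these rows left out of the total too, 535 sites in 118 animals were dominant, among them all 499. Positions within 10 bp were merged without strand, which the table lacks. IR counts per animal ran from 295999 to 6337624 with tamoxifen and from 1236372 to 5553180 without. JX and PB counts were taken within 100 bp.

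Means of the arms were compared by two-sided permutation (100000 resamples) or Fisher's exact tests, with Benjamini-Hochberg adjustment over 8 arm comparisons (the number and summed share of sites among them, which the text only describes), over 3 paired comparisons and over the genes tested, at 0.05. Scripts used Python 3.11.15, numpy 2.4.6, pandas 2.3.3 and scipy 1.17.1 and were tested on simulated data. Of 23 other settings, 20 were listed beforehand and 3 were added after seeing the data. The shared JX positions, the reading from 1 end and the check of distances were also chosen after seeing the data. Members, lists and tests were chosen with earlier results of these data known. Genes were named by rule: the 10 highest sites per arm, genes hit in at least 3 animals, the 10 highest exonic or CDS-disrupting sites, up to 6 hit members of each list and 3 sites on each side of the threshold. Other exonic sites, the highest sites of chromosome 13, genes hit in 2 animals, Tmem170b as a PB example and window genes were named after their values were seen.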

Additional observations from a re-analysis of the deposited data

Results flagged for a closer look

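The orientation of in-gene sites differed by donor chromosome. In animals with donor chromosome 7, 69.3% ± 33.3 of dominant and 35% ± 29.2 of lower in-gene sites lay in the orientation of the gene (SD, n = 23). In animals with donor chromosome 10 it was 50.4% ± 38.7 and 54.2% ± 32.4 (n = 72). The difference between dominant and lower sites was thus -38.1 percentage points for donor 10 against donor 7 (two-sided permutation test of the difference itself, p = 0.00171, adjusted p = 0.0154 over 9 such tests). The 3 tests of dominant against lower sites among these 9 were added after the donor subsets had been seen, so the p-value does not come from a comparison chosen in advance. The 6 tests of arm differences by donor had adjusted p-values of 0.604 to 0.791. Without sites on the donor chromosome the values were 65.9% and 32.1% (n = 21) and 53.6% and 52.9% (n = 58), a difference of -33.0 points (permutation test, p = 0.0188). No explanation was tested.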

How the results depend on the processing

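Of 155 recomputed signed differences, 127 kept their direction and side of the threshold. The JX difference between arms (15.4 points) lost its call with arms permuted within lanes (p = 0.0305 by permutation) and with donor chromosome 10 only (12.9). It also lost its call with shared JX positions left out (13.0), permuted across or within lanes. Permuting within lanes changes the p-value only, so 15.4 and 13.0 are differences over the animals of all lanes that had a dominant site. The number of sites was 782 at a threshold of 2%, 274 at 10% and 72 where both ends had to reach 5%. The other reversals were all of differences not called in any setting. The arm difference in gene bodies (-0.878) became 5.11 at 2%, 0.119 with merging within 100 bp, 1.33 with the reduced denominator, 7.92 for the left end, 3.03 for the mean of both ends and 1.49 with donor 10 only. That on the donor chromosome (4.13) became -0.887 at 2%, -6.24 at 10%, -4.73 for the right end and -5.15 with both ends required. Sites per animal became 0.128 (left end) and 0.0857 (both ends required), summed share 1.06 (both ends required), and animals with a CDS-disrupting site 6.26 (left end) and 0.207 (both ends required). The PB difference became 4.59 (left end), 0.0196 (window of 10 bp) and 0.273 (both ends required). Dominant minus lower sites became -2.42 on the donor chromosome (10%), -0.658, -1.31 and -0.361 in gene bodies (En2, Foxf2 and Sfi1 kept, left end, donor 10 only), and -1.70 and -3.74 for orientation (right end, donor 10 only). Their causes were not tested. PB depth, down to 1714 counts, limits what a PB count of 0 shows.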
